A study of Mus musculus with 6 samples.

Results

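The genes described here mark neurons of the thalamus and were followed through RNA-seq libraries made from striatum, the part of the basal ganglia that receives cortical and thalamic input. The 9 genes were taken by symbol (Slc17a6, Tcf7l2, Prkcd, Lef1, Rora, Plekhg1, Ramp3, Amotl1 and Rgs16) and each matched 1 of the 55335 Ensembl identifiers in the count data. The samples were 3 control samples from C57 mice labelled wild type and 3 from C57 mice labelled as overexpressing PDE5A, an enzyme that breaks down cyclic GMP. The animals' age, how PDE5A was overexpressed and what the controls received are not stated in the sources used here. Whether each sample is a different animal is not stated either, so p-values here speak of sample-to-sample spread, part of which may be technical. The 9 genes were compared between the groups and, as a description, from library to library.

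The thalamus lies medial and caudal to the striatum and sends it a dense glutamatergic projection, so the cell bodies that make thalamic transcripts lie outside the striatum while their axons end within it. Thalamic relay neurons load glutamate into vesicles mainly with VGLUT2, the product of Slc17a6, whereas most cortical neurons use VGLUT1, the product of Slc17a7. Tcf7l2 and Lef1 encode related DNA-binding proteins through which Wnt and beta-catenin signals act on transcription, and Tcf7l2 helps maintain the identity of thalamic neurons after they stop dividing. None of the 9 genes is restricted to the thalamus. Tcf7l2 is also used by the oligodendrocyte lineage, Lef1 by brain endothelium, Prkcd by neurons of the central amygdala, and Rora by many neurons and glia.

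Control libraries held from 40653784 to 42288789 counts and overexpression libraries from 33013698 to 39271447. Pde5a, the manipulated gene, had 3.72, 4.14 and 6.09 CPM (counts scaled to library size) across control replicates 1 to 3, and 760, 700 and 592 across overexpression replicates 1 to 3, a log2 fold change of 7.20 (SE 0.23) with an adjusted p of 0.000151 in edgeR's quasi-likelihood test. An exact two-sided permutation test of its log2 CPM gave p = 0.1, the lower limit for 3 samples against 3. The striatal identity of the tissue was visible in every library: 18 markers of medium spiny neurons summed to between 5268 and 10993 CPM, where the 9 thalamic genes summed to between 155 and 245. Choroid plexus markers stood apart in 2 libraries, at 924 and 3486 summed CPM in overexpression replicates 1 and 2 against 318 to 455 in the other 4. Cortical glutamatergic markers ran from 456 in control replicate 2 to 2227 in overexpression replicate 3. In bulk tissue, fewer cells of a type and less RNA per cell cannot be told apart.

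All 9 genes had negative fold changes in overexpression over control, and 0 of the 9 passed the threshold of an adjusted p of 0.05 in the quasi-likelihood test of edgeR, adjusted by Benjamini-Hochberg over 19809 genes. Of all genes tested, 49.4% had a negative fold change and 0.00505% passed in either direction, 1 gene in all (Pde5a), with 0 lower. The median log2 fold change of the 9 was −0.39, beside 0.00158 over all genes tested. Some other lists were lopsided too. Fold changes were negative for 16 of 18 medium spiny neuron markers and positive for 15 of 16 cortical glutamatergic markers, while 4 of 8 tested habenula markers were negative. The members were chosen with earlier results of these data known, so the count of signs is a description. At an unadjusted p under 0.05 there were 3 members, Prkcd, Tcf7l2 and Amotl1, beside 1.64% of all genes on the lower side. The 3 control values lay above all 3 overexpression values for 2 members, Prkcd and Tcf7l2, beside 4.11% of all genes. The median depended on the libraries used. It was −0.19 without control replicate 1 and −0.21 without overexpression replicates 1 and 2, where 6 of the 9 stayed negative.

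**Figure D1:**
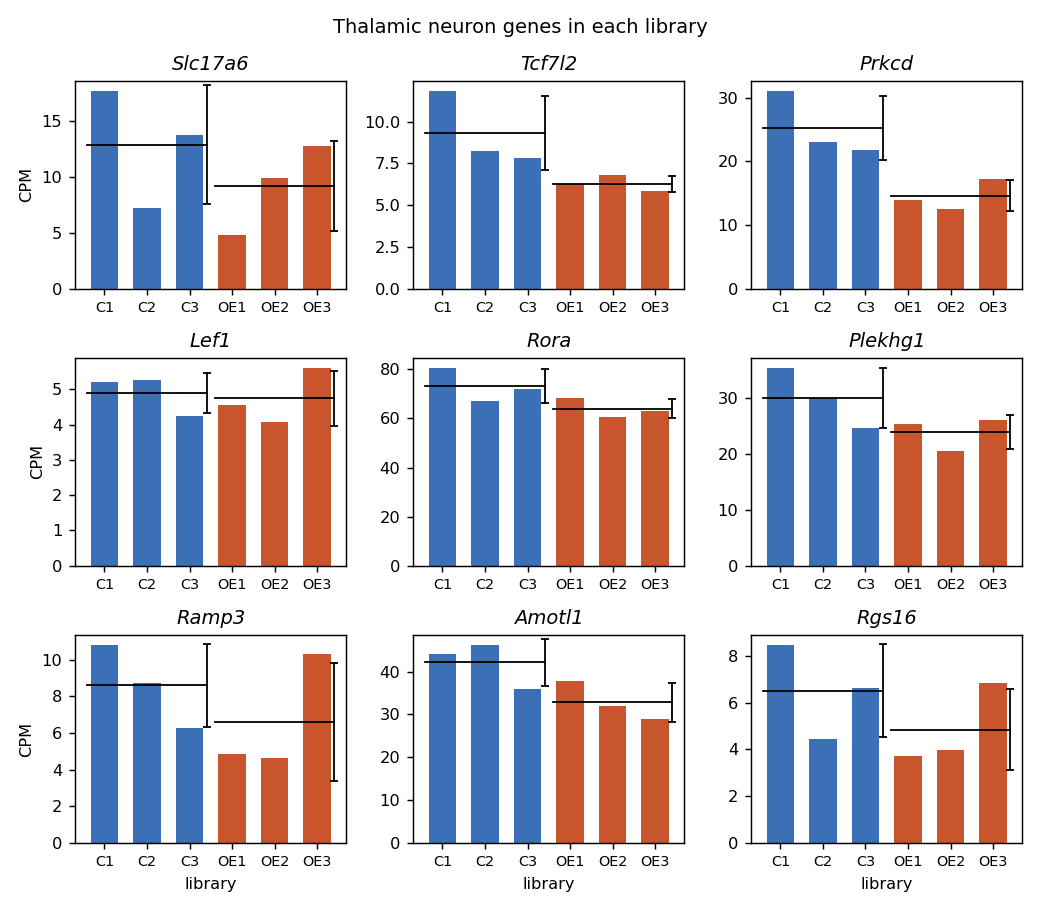
CPM (vertical axes, linear, from 0) of each of the 9 genes in the 3 control libraries (C1 to C3, blue) and the 3 overexpression libraries (OE1 to OE3, orange). Horizontal lines are group means and error bars are SD (n = 3); C1 has the tallest bar for 7 of the 9 genes, and the groups are separate for Prkcd and Tcf7l2.

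The sequences before the start sites of Prkcd and Tcf7l2 are shown because these were the members whose groups did not overlap, and because Tcf7l2 and Lef1 proteins bind the core CTTTGA and the Rora protein binds the half-site AGGTCA. Each is the first window that RefSeq's GRCm38.p6 annotation gives for the gene, the 250 bases before the start, written along the gene's own strand. Capitals mark a match to either core on either strand.
Prkcd, chr14:30626209-30626458, minus strand: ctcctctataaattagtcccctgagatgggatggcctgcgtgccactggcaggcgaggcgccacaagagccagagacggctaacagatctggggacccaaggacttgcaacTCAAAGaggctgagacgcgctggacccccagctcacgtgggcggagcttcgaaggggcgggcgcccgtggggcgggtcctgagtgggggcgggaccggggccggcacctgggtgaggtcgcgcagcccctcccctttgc
Tcf7l2, chr19:55741560-55741809, plus strand: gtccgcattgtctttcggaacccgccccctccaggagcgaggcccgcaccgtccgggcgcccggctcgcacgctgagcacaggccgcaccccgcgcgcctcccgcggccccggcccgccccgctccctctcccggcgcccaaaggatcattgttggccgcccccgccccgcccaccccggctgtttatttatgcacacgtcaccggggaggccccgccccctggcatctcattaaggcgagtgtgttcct
The Prkcd window held 1 match to the CTTTGA core, on the opposite strand and starting at base 112 counted from the 5′ end of the window, and the Tcf7l2 window held none. Of the first windows of the 9 members, 1 held the CTTTGA core and 0 held the AGGTCA half-site. Among 27025 promoter windows of 250 bases, 1 per gene, 14.05% held the first and 13.84% the second. The match is a description of the letters in this window. Both windows are rich in G and C, at 67.6% for Prkcd and 72.8% for Tcf7l2.

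Prkcd encodes protein kinase C delta, a diacylglycerol-activated kinase that needs no calcium. It is a protein-coding gene (ENSMUSG00000021948) on the minus strand of chromosome 14, from 30595354 to 30626210 in mm10. Prkcd had 31.1, 23.0 and 21.8 CPM in control replicates 1 to 3 and 13.9, 12.6 and 17.3 CPM in overexpression replicates 1 to 3. Every control library was above every overexpression library, and the gap was narrowest between control replicate 3 and overexpression replicate 3. The means were 25.3 ± 5.05 and 14.6 ± 2.42 CPM (SD, n = 3), a log2 fold change of −0.79 (SE 0.17, 95% interval −1.19 to −0.40), with an adjusted p of 0.824 in edgeR's quasi-likelihood test. The DESeq2 Wald test gave Prkcd an adjusted p of 0.00978, and it was the one member that test called, where 0.419% of genes were called in either direction and 7 genes, 0.0353%, lower. The direction held in each of 15 other fits, with log2 fold changes from −0.94 to −0.55 and adjusted p from 0.00978 to 1.0.

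Among the transcription factors, Tcf7l2 (ENSMUSG00000024985, plus strand of chromosome 19, 55741820 to 55933654) had 11.8, 8.24 and 7.82 CPM across the controls, and 6.23, 6.77 and 5.82 with overexpression. Its groups were separate too, and control replicate 1 stood well above the other 5 libraries. The log2 fold change was −0.57 (SE 0.18, 95% interval −0.99 to −0.15), with an adjusted p of 1.0 in edgeR's quasi-likelihood test. It was −0.35 without control replicate 1 and −0.68 without overexpression replicates 1 and 2.

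Lef1, the relative of Tcf7l2 (ENSMUSG00000027985, plus strand of chromosome 3, 131110471 to 131224356), had 5.20, 5.27 and 4.26 CPM across the controls, and 4.56, 4.06 and 5.61 with overexpression. The groups overlapped throughout, and the highest library of the 6 was overexpression replicate 3. The log2 fold change was −0.05 (SE 0.18), and its 95% interval, −0.46 to 0.36, held changes of either sign. The direction turned in 4 of the 15 other fits, up to 0.19 without overexpression replicates 1 and 2. Lef1 shares 1208 exon bases with Gm43352, an antisense gene averaging 0.355 CPM in controls and 0.199 under overexpression, and Rora, Ramp3 and Rgs16 share 82, 101 and 236 exon bases with genes on the opposite strand. The strand setting of the counting is not known, so reads of these pairs may not be told apart.

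Rora, a nuclear receptor gene (ENSMUSG00000032238, plus strand of chromosome 9, 68653786 to 69388246), was the most highly counted member. It had 80.6, 67.1 and 72.0 CPM across the controls, and 68.4, 60.7 and 63.1 with overexpression. Only control replicate 2 and overexpression replicate 1 crossed, and the whole range across libraries was 1.33-fold, the narrowest of the 9. Its log2 fold change was −0.19 (SE 0.09), with a 95% interval of −0.40 to 0.01 and an adjusted p of 1.0 in edgeR's quasi-likelihood test.

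Slc17a6, the transmitter gene of the set (ENSMUSG00000030500, plus strand of chromosome 7, 51622006 to 51671119), varied more than any other member. It had 17.7, 7.19 and 13.7 CPM across the controls, and 4.79, 9.93 and 12.8 with overexpression, a range of 3.69-fold. Control replicate 2 was below 2 of the 3 overexpression libraries, so the groups overlapped. The log2 fold change of −0.49 (SE 0.46) had a 95% interval of −1.62 to 0.64 and an adjusted p of 1.0 in edgeR's quasi-likelihood test. It was −0.01 without overexpression replicates 1 and 2, −0.19 without control replicate 1 and −0.82 without overexpression replicate 3.

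Rgs16 (ENSMUSG00000026475, plus strand of chromosome 1, 153740349 to 153745468) encodes an accelerator of GTP hydrolysis by G protein alpha subunits. Its course was similar to that of Slc17a6 except in overexpression replicate 2. Rgs16 had 8.47, 4.46 and 6.63 CPM across the controls, and 3.72, 3.97 and 6.83 with overexpression. In overexpression replicate 2, Rgs16 was below every control, while Slc17a6 was above control replicate 2. As with Slc17a6, control replicate 2 was low for its group and overexpression replicate 3 high for its own. Between groups, the log2 fold change was −0.43 (SE 0.31, 95% interval −1.16 to 0.30), it was 0.06 without overexpression replicates 1 and 2, and the smallest count behind any member's value, 132, was that of Rgs16 in overexpression replicate 2.

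Ramp3, a membrane partner that shapes the ligand preference of calcitonin-family receptors (ENSMUSG00000041046, plus strand of chromosome 11, 6658521 to 6677475), had 10.8, 8.75 and 6.29 CPM across the controls, and 4.84, 4.63 and 10.3 with overexpression. Overexpression replicates 1 and 2 were below every control, while replicate 3 was above 2 of the 3 controls. Its log2 fold change of −0.39 (SE 0.36) became 0.26 without overexpression replicates 1 and 2 and −0.86 without overexpression replicate 3. Ramp3 thus had no direction that held for all 3 overexpression libraries.

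Plekhg1 (ENSMUSG00000040624, plus strand of chromosome 10, 3740364 to 3967303) had 35.5, 30.1 and 24.6 CPM across the controls, and 25.4, 20.5 and 26.1 with overexpression. Control replicate 3 lay within the overexpression range. Its log2 fold change was −0.32 (SE 0.15, 95% interval −0.67 to 0.02). Amotl1, an angiomotin-family scaffold of cell junctions (ENSMUSG00000013076, minus strand of chromosome 9, 14541966 to 14645056), had 44.2, 46.2 and 36.0 CPM across the controls, and 37.8, 32.0 and 28.9 with overexpression. Its highest library was control replicate 2 and its lowest overexpression replicate 3, the reverse of where Slc17a6 and Rgs16 stood in those libraries relative to their groups. For Amotl1 the log2 fold change was −0.36 (SE 0.13, 95% interval −0.66 to −0.06), with an adjusted p of 1.0 in edgeR's quasi-likelihood test.

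**Figure D2:**
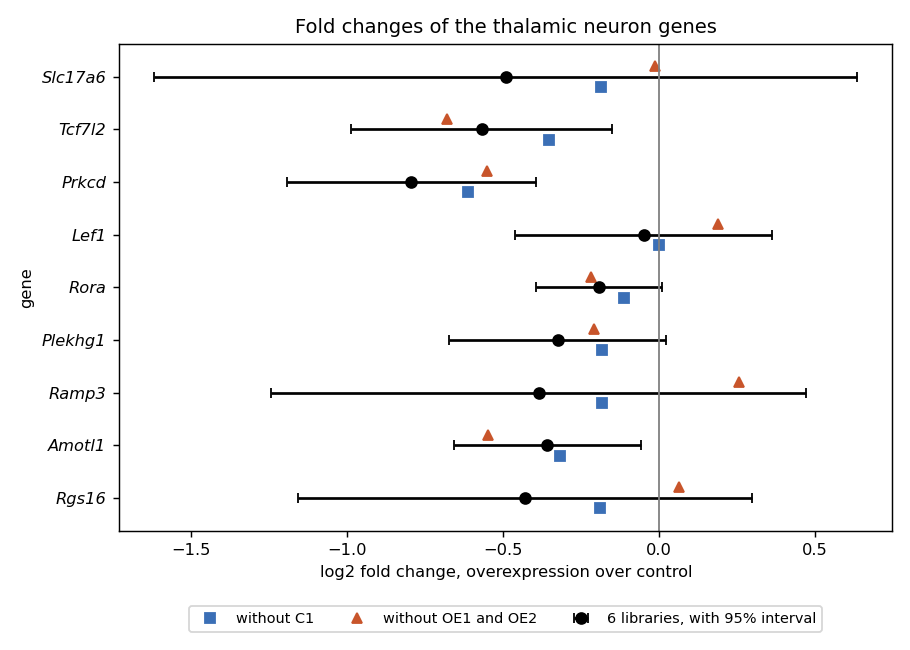
Log2 fold change, overexpression over control (horizontal axis), of each member in the fit of 6 libraries (black circles, with 95% intervals), without control replicate 1 (blue squares) and without overexpression replicates 1 and 2 (orange triangles). All 9 black circles lie below 0; the interval excludes 0 for Prkcd, Tcf7l2 and Amotl1, and 3 triangles (Lef1, Ramp3 and Rgs16) lie above 0.

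Levels were set beside each other per kilobase of merged exons. In control, the mean level ran from 6.24 ± 1.64 CPM per kilobase for Ramp3, 5.60 ± 0.523 for Rora and 4.56 ± 0.911 for Prkcd down to 1.06 ± 0.251 for Tcf7l2 and 0.558 ± 0.0643 for Lef1 (SD, n = 3). Amotl1, Plekhg1, Rgs16 and Slc17a6 lay in between, in that order. Neighbours in the order overlapped over their 3 control libraries except for Tcf7l2 and Lef1. In overexpression the order was Rora, Ramp3, Amotl1, Plekhg1, Prkcd, Rgs16, Slc17a6, Tcf7l2 and Lef1, with Prkcd between Plekhg1 and Rgs16, at 2.63 ± 0.437 CPM per kilobase. There, Slc17a6 and Tcf7l2 did not overlap, nor did Tcf7l2 and Lef1, while the other neighbours did. Exons of all isoforms were merged, so levels per kilobase of genes with many isoforms are understated.

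Control replicate 1 had the highest value of the 6 libraries for 7 of the 9 members, beside 14.9% of all genes tested. The exceptions were Lef1, highest in overexpression replicate 3, and Amotl1, highest in control replicate 2. The lowest value was always in an overexpression library, in replicate 2 for Prkcd, Lef1, Rora, Plekhg1 and Ramp3, in replicate 1 for Slc17a6 and Rgs16, and in replicate 3 for Tcf7l2 and Amotl1. The mean log2 CPM of the 9 was 4.28, 3.85 and 3.85 in control and 3.46, 3.48 and 3.84 in overexpression. Overexpression replicate 3 was therefore close to control replicates 2 and 3, while overexpression replicates 1 and 2 lay below all of the other libraries and control replicate 1 above them.

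**Figure D3:**
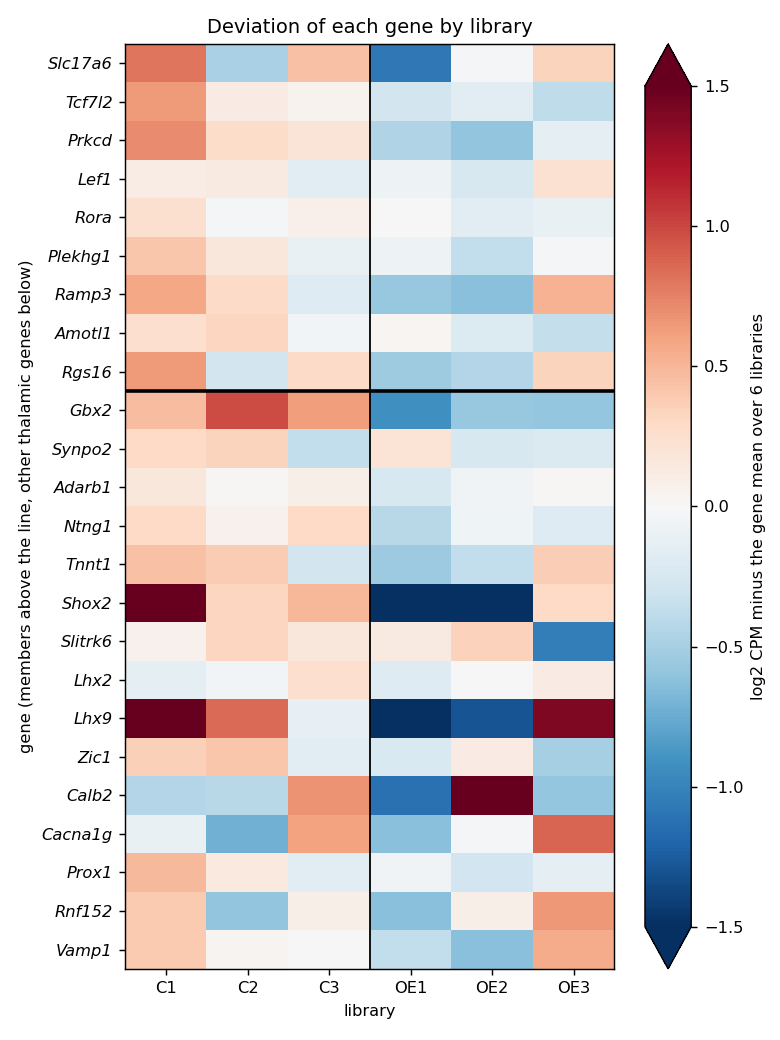
Log2 CPM minus the gene's mean over the 6 libraries (color, from −1.5 in blue to 1.5 in red, values beyond shown at the end colors) for the 9 members (above the line) and 15 other thalamic genes (below it), by library (horizontal axis). Column C1 is red for all 9 members; OE1 and OE2 are mostly blue; Lhx9 and Shox2 reach the ends of the scale at C1 and OE1.

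As a description of how alike the courses were, Pearson's r of log2 CPM over the 6 libraries was positive for 35 of the 36 pairs of members, with a median of 0.60 (median Spearman's rho 0.51). The 6 points share the group difference and the tissue pieces, and no p is given. After each group's mean was subtracted, 32 pairs were positive with a median r of 0.44. Without control replicate 1, 26 pairs were positive with a median of 0.37. Prkcd was the most central member, with r = 0.96 against the mean of the other 8, followed by Plekhg1 at 0.91. Amotl1 at 0.49, Lef1 at 0.51 and Slc17a6 at 0.51 were the least central.

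Within the set, the closest pairs were Slc17a6 with Rgs16 (r = 0.89), Lef1 with Ramp3 (r = 0.89) and Prkcd with Plekhg1 (r = 0.88). Slc17a6 and Amotl1 were the pair with a negative value, −0.13, which was −0.71 once group means were subtracted. Rgs16 and Amotl1 stood at 0.03 and, with group means subtracted, −0.58. Ramp3 was close to Plekhg1 (r = 0.79, rho 0.89), Prkcd (r = 0.77, rho 0.83) and Rgs16 (r = 0.77, rho 0.89) as well as to Lef1. It stood at 0.57 with Slc17a6.

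**Figure D4:**
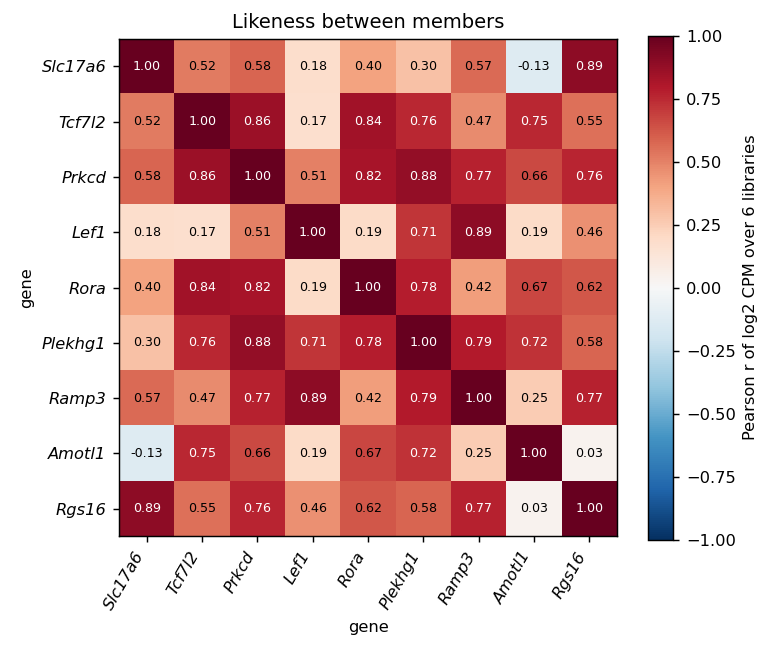
Pearson's r of log2 CPM over the 6 libraries between each pair of members (both axes; color and printed value). All pairs but Slc17a6 with Amotl1 (−0.13) are positive, and Slc17a6 with Rgs16 and Lef1 with Ramp3 reach 0.89.

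Levels of other tissues and cells moved with some of these courses. Cortical glutamatergic markers summed to 1117, 456 and 1745 CPM across the controls, and 750, 1213 and 2227 with overexpression. Medium spiny neuron markers ran the other way, at 8146, 10993 and 6327 CPM across the controls, and 10715, 8335 and 5268 with overexpression. Control replicate 2 was thus the lowest library for the cortical list and the highest for the spiny list, and overexpression replicate 3 was the reverse. Over the 6 libraries, Slc17a6 had r = 0.65 with the cortical list's mean log2 CPM (rho 0.54) and −0.69 with that of the spiny list (rho −0.71), and Rgs16 had 0.57 and −0.65. Amotl1 had −0.76 with the cortical list and 0.71 with the spiny list. Prkcd had −0.09 and −0.05, and Tcf7l2 −0.22 and 0.22. The part of cortical or striatal content in the courses of Slc17a6, Rgs16 and Amotl1 was not tested.

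Choroid plexus markers were high in the same 2 libraries in which the members' mean was lowest. Their mean log2 CPM had r = −0.67 with the members' mean course (rho −0.43). For single members it was most negative with Ramp3, at −0.76 (rho −0.60), and Prkcd, at −0.71 (rho −0.43). It was weakest with Tcf7l2, at −0.25 (rho 0.14), and Amotl1, at −0.26 (rho 0.20). All 15 markers had positive fold changes and 0 passed the test over all genes. Within the overexpression group, Ttr, the thyroid hormone carrier of the choroid plexus, had 481, 2243 and 22.5 CPM. In overexpression replicate 3, Ttr was below every control. Prkcd, Tcf7l2, Rora and Amotl1 were below every control in that library. Slc17a6, Plekhg1, Ramp3 and Rgs16 lay within the control range and Lef1 was above every control. These positions rest on 1 library, and the share of all genes below every control in overexpression replicate 3 was not computed. In the fit with that library as the only overexpression sample, which assumes that the lone sample varies as the controls do, the log2 fold changes of Tcf7l2, Prkcd, Amotl1, Rora and Plekhg1 were −0.68, −0.55, −0.55, −0.22 and −0.21, Slc17a6 was at −0.01, and Rgs16, Lef1 and Ramp3 were at 0.06, 0.19 and 0.26. In that fit 0 of the 9 passed the threshold, 1 had an unadjusted p under 0.05, and the quasi-likelihood test of edgeR gave adjusted p between 0.693 and 0.997. The part of choroid plexus content in the members' levels was not tested.

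Oligodendrocyte markers were highest in control replicate 1 too. They summed to 15965, 14443 and 11274 CPM across the controls, and 13277, 12237 and 13138 with overexpression. Of the 14 markers, 12 had negative fold changes, the median log2 fold change was −0.11 and 0 passed in either direction. The members' mean course had r = 0.69 with their mean log2 CPM (rho 0.60). Plekhg1 had r = 0.81 with their mean log2 CPM (rho 0.89) and Tcf7l2 had 0.66 (rho 0.49). Gpr17, a receptor of cells committed to become oligodendrocytes, had 46.4 ± 0.933 CPM across the controls, and 40.9 ± 0.790 with overexpression (SD, n = 3), with separate groups and an adjusted p of 1.0 in edgeR's quasi-likelihood test. Bmp4, a secreted signal of the bone morphogenetic protein family, ran the other way, at 1.62 ± 0.227 and 2.11 ± 0.210 CPM (SD, n = 3). Groups were thus separate for 1 of the 14 markers with overexpression lower and 1 higher. Among all 19809 genes tested they were separate for 815 lower and 953 higher. Endothelial markers were lowest in control replicate 1, at 257 summed CPM, and ran from 281 to 334 in the other libraries. Lef1 had r = 0.26 with the endothelial list (rho 0.43). The part of these cells in the members' levels was not tested.

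**Figure D5:**
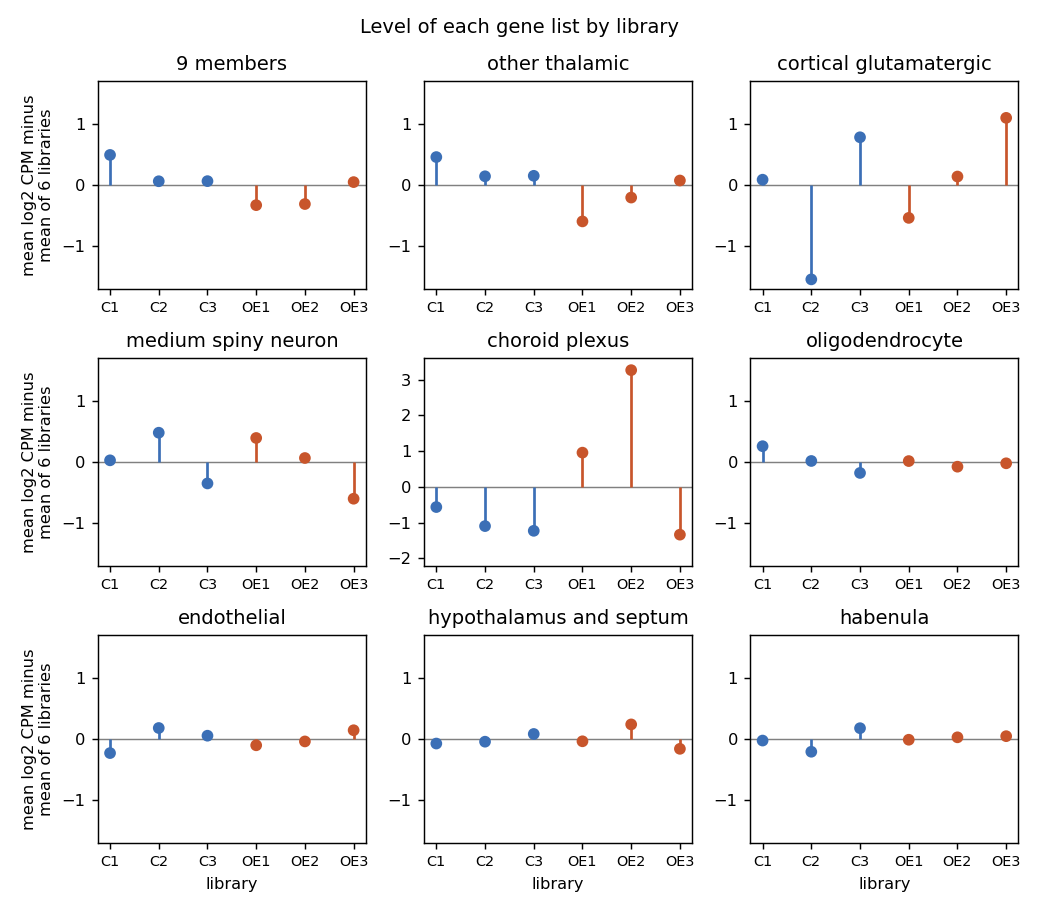
Mean log2 CPM of each gene list minus its mean over the 6 libraries (vertical axis; the choroid plexus panel has a wider scale), by library, for controls (blue) and overexpression (orange). The members and the other thalamic genes are both highest in C1 and below their means in OE1 and OE2; the cortical and spiny lists mirror each other, and choroid plexus is high in OE1 and OE2.

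A list of 15 other genes known from thalamic neurons or nuclei followed a similar course in mean log2 CPM. Of the 15, all were tested, 12 had negative fold changes, 0 passed in either direction and the median log2 fold change was −0.26. Their mean log2 CPM was 3.58, 3.27 and 3.28 in control and 2.53, 2.92 and 3.20 in overexpression, so control replicate 1 was again highest and overexpression replicates 1 and 2 lowest. It had r = 0.86 with the mean course of the 9 members (rho 0.89). Single genes of the list ran from r = −0.39 (Calb2) to 0.98 (Shox2). A mean of log2 values weighs Lhx9 and Gbx2, under 1 CPM in every library, like the other genes. In control replicate 1, Shox2 and Lhx9 lay 2.53 and 1.58 above their own mean log2 CPM. Summed CPM was 519, 444 and 465 in control and 363, 403 and 503 in overexpression. By that measure overexpression replicate 3 was above control replicates 2 and 3. The groups did not overlap, with overexpression lower, for 4 of the 15 (Gbx2, Ntng1, Shox2 and Adarb1), beside 4.11% of all genes tested. For Adarb1 and Shox2 the margin was very small, between control replicate 2 and overexpression replicate 3. Adarb1 had 180.819 and 180.735 CPM in those libraries, and Shox2 had 0.9995 and 0.9876. The list of 15 too was chosen with earlier results of these data known.

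Shox2, a homeobox gene of the thalamus, had 4.82, 1.0 and 1.14 CPM across the controls, and 0.228, 0.150 and 0.988 with overexpression. Its course was the most like that of the 9 members among these genes, with r = 0.98, and control replicate 1, at 4.82 CPM, was far above the other libraries. The log2 fold change was −2.33 (SE 0.93), with an adjusted p of 1.0 in edgeR's quasi-likelihood test. Gbx2, a homeobox gene needed for thalamic development, had 0.549, 0.805 and 0.619 CPM across the controls, and 0.177, 0.241 and 0.240 with overexpression. Here control replicate 2, not replicate 1, was highest, and all 3 overexpression libraries were alike. Ntng1, which encodes the axon guidance protein netrin-G1 made by thalamic neurons, had 17.4, 14.7 and 17.3 CPM across the controls, and 10.6, 13.5 and 12.3 with overexpression.

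Lhx9, a LIM homeobox gene chosen here after its values were seen, had 0.763, 0.439 and 0.198 CPM across the controls, and 0, 0.0602 and 0.667 with overexpression. Like Ramp3, it was low in overexpression replicates 1 and 2 and high in replicate 3. Calb2, the calretinin gene, did not share the course: its highest library was overexpression replicate 2, at 17.5 CPM, one of the 2 libraries in which the members' mean was lowest. Cacna1g, a T-type calcium channel gene also made in cortex, had 27.3, 17.8 and 44.6 CPM across the controls, and 19.1, 29.0 and 54.1 with overexpression, the same order of the 6 libraries as for the summed cortical list. Calb2 and Cacna1g were likewise named after their values were seen.

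Lists for other neighbouring regions were set beside this course. Habenula markers, from the nucleus next to the thalamus, had 4 of 8 tested members negative, a median log2 fold change of −0.04 and r = −0.21 with the members' mean course (rho −0.43). Their defining gene Pou4f1 was at most 0.189 CPM in any library and was not tested. Among them Hcn4, a pacemaker channel gene also made in the thalamus, had 6.20, 7.07 and 6.06 CPM across the controls, and 3.90, 4.84 and 4.54 with overexpression, separate groups with a log2 fold change of −0.54 (SE 0.15) and an adjusted p of 0.980 in edgeR's quasi-likelihood test. Hcn4 was the 1 marker of the 8 tested with separate groups, beside 4.11% of all genes on the lower side. Single habenula markers were not alike. Their r with the members' mean course ran from −0.67 for Chrnb4, under 1 CPM in every library, to 0.74 for Gng8, with Hcn4 at 0.66. Nwd2 had 12.5, 4.12 and 27.9 CPM across the controls, and 8.89, 25.3 and 28.9 with overexpression, the same order of the 6 libraries as for the summed cortical list. Of 15 genes of the hypothalamus and septum, 5 were tested, 2 of them negative, with a median log2 fold change of 0.06. The mean log2 CPM of those tested had r = −0.55 with the members' mean course (rho −0.54). Among the 5 was the peptide gene Trh, with 2.71 to 4.35 CPM in the 6 libraries. The peptide genes Gal, Avp, Pmch, Oxt and Hcrt were not tested and reached at most 0.623, 0.535, 0.378, 0.0738 and 0.0479 CPM.

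Outside the lists, the genes most like the members were taken from 11520 named genes with a mean of at least 5 CPM, by Pearson's r with the mean of the members' standardized log2 CPM over the 6 libraries. The first were Ppwd1 (r = 0.996), Itsn1 (0.98), Txnl4a (0.98), Setd7 (0.98), Irs2 (0.98), Ankrd26 (0.97), Cobll1 (0.97) and Nap1l3 (0.97). Their differences were small: Itsn1, which encodes an endocytic scaffold, had 131, 120 and 122 CPM across the controls, and 113, 109 and 117 with overexpression. The most opposite genes were Wdr48 (−0.99), Scnm1 (−0.98), Gvin1 (−0.98) and Hcls1 (−0.97). With 6 libraries, the 95th percentile of r over these genes was 0.72, so likeness of this degree came from a search among many genes and is given as a description.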

How the data were processed

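RNA was measured in 3 control and 3 overexpression striatum samples, grouped by title. Whole-number counts per Ensembl gene were deposited by the authors, 1 table per sample, without normalization. Trizol extraction and a strand-specific TruSeq kit were used, per the labels' protocols. The submitters' processing notes name FastQC 0.11.5, STAR 2.5.3a, Cuffnorm, DESeq 1.16.1 and mm10, with no roles. The counting program and its strand setting are not stated in the sources used here.

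Symbols and coordinates came from GENCODE M21 of the same assembly, which matched 55154 of 55335 identifiers. Groups were compared with edgeR 4.0.16 in R 4.3.3 (TMM factors, filterByExpr, robust quasi-likelihood F-tests, two-sided, Benjamini-Hochberg adjustment over 19809 genes). All 9 members passed the filter. CPM use TMM-adjusted library sizes, and log2 CPM a prior count of 2. Standard errors were taken from the fold change and its F statistic, and 95% intervals use the t distribution with the fit's degrees of freedom. Totals of 33013698 to 42288789 counts gave 132 to 3378 counts per member and library. Replicates differed by more than sampling noise (chi-square per degree of freedom 19.1 to 49.6). The alternatives were other scalings and filters, DESeq2 1.42.0, limma-voom (limma 3.58.1), a replicate block and libraries left out.

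The members and lists were chosen with earlier results of these data known. Beyond the members and Pde5a, the rule names up to 3 genes per list by smallest p, and up to 8 most alike and 4 most opposite genes. Adarb1, Pou4f1, Nwd2, Oxt, Hcrt, Gal, Avp, Pmch, Trh, Lhx9, Calb2, Cacna1g, Tcf7l1 and Rnf43 lie outside it. They were named after their values were seen.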

Additional observations from a re-analysis of the deposited data

How the results depend on the processing

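The count of 9 negative fold changes was 8 to 9 when 1 library was left out and 6 without overexpression replicates 1 and 2, and was 9 in all 8 fits of the 6 libraries with another scaling, test, filter or block. Members past the threshold numbered 0 in the 6-library fit and in 14 of 15 other fits, and 1 with the DESeq2 Wald test (Prkcd, at −0.79). The cause was not tested. The members' median log2 fold change ran from −0.52 (without overexpression replicate 3) to −0.19 (without control replicate 1). Of 135 values of single members in other fits, 6 changed sign, with the cause not tested. Lef1 lay between −0.19 and 0.050 with single libraries left out, including 0.00041 without control replicate 1 and 0.0066 without control replicate 2. Without overexpression replicates 1 and 2, Lef1, Ramp3 and Rgs16 were at 0.19, 0.26 and 0.065. Genes called in the whole table numbered 1 in the 6-library fit, 83 with DESeq2, 5 with limma-voom, 3 without a filter, 3 with the block, 5 without overexpression replicates 1 and 2, and 2 without control replicate 2 or control replicate 3. The replicate numbers share no stated source: same-numbered samples' deviations had r = −0.02, 0.03 and 0.29, and control replicate 2 was most like overexpression replicate 1 (0.35), so not every sample was most like its own number. With replicate number as a block, 0 members passed, 9 were negative and the median was −0.43. Each member rested on 132 or more counts per library, while listed genes under 1 CPM, such as Gbx2 and Lhx9, rest on few reads and carry more counting error.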

Other observations

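Because Tcf7l2 and Lef1 act in Wnt signalling, 22 other genes of that pathway were listed. Of these, 10 had negative and 12 positive fold changes, with a median log2 fold change of 0.03, and 0 passed over all genes in either direction. Tcf7, a further member of the same factor family, had 8.97, 10.5 and 6.41 CPM across the controls, and 5.57, 4.06 and 6.30 with overexpression. Its groups were separate by a small margin, between control replicate 3 and overexpression replicate 3, and its log2 fold change was −0.70 (SE 0.23), with an adjusted p of 1.0 in edgeR's quasi-likelihood test. Pygo1, a coactivator that works with beta-catenin, had 39.5 ± 2.26 CPM across the controls, and 33.0 ± 1.91 with overexpression (SD, n = 3), also without overlap. Lgr6, a receptor for R-spondins, which strengthen Wnt signals, ran the other way, at 1.98 ± 0.309 CPM across the controls, and 3.54 ± 0.352 with overexpression (SD, n = 3), with an adjusted p of 0.849 in edgeR's quasi-likelihood test. The groups did not overlap, with overexpression lower, for 3 of the 22 (Tcf7, Pygo1 and Tcf7l1), beside 4.11% of all genes tested. With overexpression higher they did not overlap for 2 (Lgr6 and Rnf43), beside 953 of 19809 genes. The list's mean level had r = −0.00040 with the mean course of the 9 members (rho 0.14).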
